A study of Mus musculus with 15 samples.

Results

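The genes described here are Mad2l1, the gene floxed in these mice, core genes of the spindle assembly checkpoint around it, and Mad2l2, a relative of Mad2l1 that is counted with them as a checkpoint gene. They were chosen by name: Mad2l1, Mad1l1, Mad2l2, Bub1, Bub1b, Bub3, Ttk and Cdc20, of which 7 of 8 had a probe on the array, out of 19948 autosomal gene names in all. Bub3 had no probe and was dropped. The 7 genes were covered by 11 probes, of which Mad1l1, Bub1, Bub1b and Ttk had 2 each and Mad2l1, Mad2l2 and Cdc20 had 1 each.

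DNA copy number was measured by array comparative genomic hybridization in 5 hepatocellular carcinomas (HCC) and 3 unaffected livers of 3 mice, on 15 arrays. Every mouse was Mad2(f/f) and carried Albumin-Cre, so both alleles of Mad2l1 were floxed in HCC and unaffected liver alike, and Albumin-Cre acts in hepatocytes. HCC 1, HCC 2 and liver 1 came from mouse 3151, a female Mad2(f/f) p53(f/+) animal of 16.4 months. HCC 3 and liver 2 came from mouse 3760, and HCC 4, HCC 5 and liver 3 from mouse 4033, both male and Mad2(f/f) p53(f/f), at 13.8 and 13.9 months. The reference DNA on every array came from normal liver of the opposite sex to the tissue, whose strain label names no floxed or Cre allele, and the study describes a mixed strain background. The p53 genotype, the sex, the age and the mouse could not be told apart. HCC 3 was hybridised on 1 array, and every other tissue on 2 arrays with the dyes exchanged. A bulk DNA ratio cannot tell fewer cells with a deletion from fewer copies in each cell, and the study describes non-recombined cells in these tumours. The labels give the alleles of the mouse and not the share of recombined cells in a tissue, and DNA ratios hold no marker of cell type against which the tissue labels could be checked.

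The spindle assembly checkpoint delays anaphase until every kinetochore is attached to spindle microtubules. At an unattached kinetochore, Ttk (the Mps1 kinase) and the kinase Bub1 set up a platform to which Mad1l1 brings Mad2l1. Mad2l1 there changes its fold and joins Bub1b (BubR1) and Bub3 in holding Cdc20, the activator of the anaphase-promoting complex, in the mitotic checkpoint complex. Mad2l2 (Rev7) is a relative of Mad2l1 known mainly as a subunit of DNA polymerase zeta and of shieldin. Cells without Mad2l1 can enter anaphase with unattached chromosomes and so gain or lose whole chromosomes.

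The probes of the 4 genes on which the results turn are shown because each value below is the ratio of tissue to reference DNA bound to these bases. All letters are in lower case since no part of a probe was singled out. Positions are as in the array files, whose genome build is not given in the sources used here. Mad2l1 lay at chr6:66489958-66490017, Mad1l1 at chr5:140645325-140645384 (probe 1) and chr5:140782660-140782719 (probe 2), Cdc20 at chr4:118107002-118107061 and Mad2l2 at chr4:147519270-147519318. The study describes an array probe of Mad2l1 in the fragment that Cre removes, and the array held 1 probe of this name, but where it lies against the loxP sites was not checked here.
Mad2l1: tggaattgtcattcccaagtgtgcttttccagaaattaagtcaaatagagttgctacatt
Mad1l1 probe 1: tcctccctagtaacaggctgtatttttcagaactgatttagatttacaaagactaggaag
Mad1l1 probe 2: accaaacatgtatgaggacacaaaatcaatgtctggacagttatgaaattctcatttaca
Cdc20: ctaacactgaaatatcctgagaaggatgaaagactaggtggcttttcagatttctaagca
Mad2l2: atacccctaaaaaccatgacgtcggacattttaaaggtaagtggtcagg

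These probes were 60 bases long apart from that of Mad2l2, which had 49 bases, and their GC content ran from 33.3% for Mad1l1 probe 2 to 42.9% for Mad2l2. Of the 165 spots of member probes on the 15 arrays, 0 were marked as outliers or saturated. A single spot, of Mad1l1 probe 2 on the dye-swap array of liver 3, was not well above background.

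Mad2l1 was the gene with the widest range. A level is the log2 ratio of tissue to reference DNA after each array was centred on its autosomal median. A level of 0 thus means the median ratio of the array, which need not be equality with the reference. Centring on the mode of the values instead moved HCC 5 most, by 0.32. Gains or losses are counted past 0.3 in either direction. The Mad2l1 level of mouse 3151 was -1.22 in HCC 1, -0.71 in HCC 2 and 0.01 in liver 1. That of mouse 3760 was 0.08 in HCC 3 and 0.36 in liver 2, and that of mouse 4033 was 0.53 in HCC 4, 0.59 in HCC 5 and 0.69 in liver 3. On a linear scale, after centring on the median, HCC 1 held 0.428 and HCC 2 held 0.61 of the reference signal. HCC 4, HCC 5 and liver 3 held 1.45, 1.51 and 1.62 times the reference signal. The 2 HCC of the p53(f/+) mouse were therefore the lowest of the 8 tissues. Every other tissue lay above 0, though liver 1 (0.01) and HCC 3 (0.08) lay close to it.

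In most tissues these values lay near an end of the range of all genes. In HCC 1 only 17 of the 19948 gene names had a lower level than Mad2l1, and in HCC 2 only 109 had one. In liver 3 99.9%, in liver 2 99.6%, in HCC 5 97.8% and in HCC 4 93.9% of gene names were lower. HCC 3 and liver 1 lay nearer the middle, with 60.8% and 55.6% of gene names lower. Both dye orientations gave the same sign in each of the 7 tissues that had them. The forward and dye-swap arrays gave -0.97 and -1.48 in HCC 1, -0.65 and -0.78 in HCC 2, and 0.71 and 0.67 in liver 3. The median absolute difference between orientations was 0.14 for Mad2l1 and 0.17 over all gene names and tissues.

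**Figure D1:**
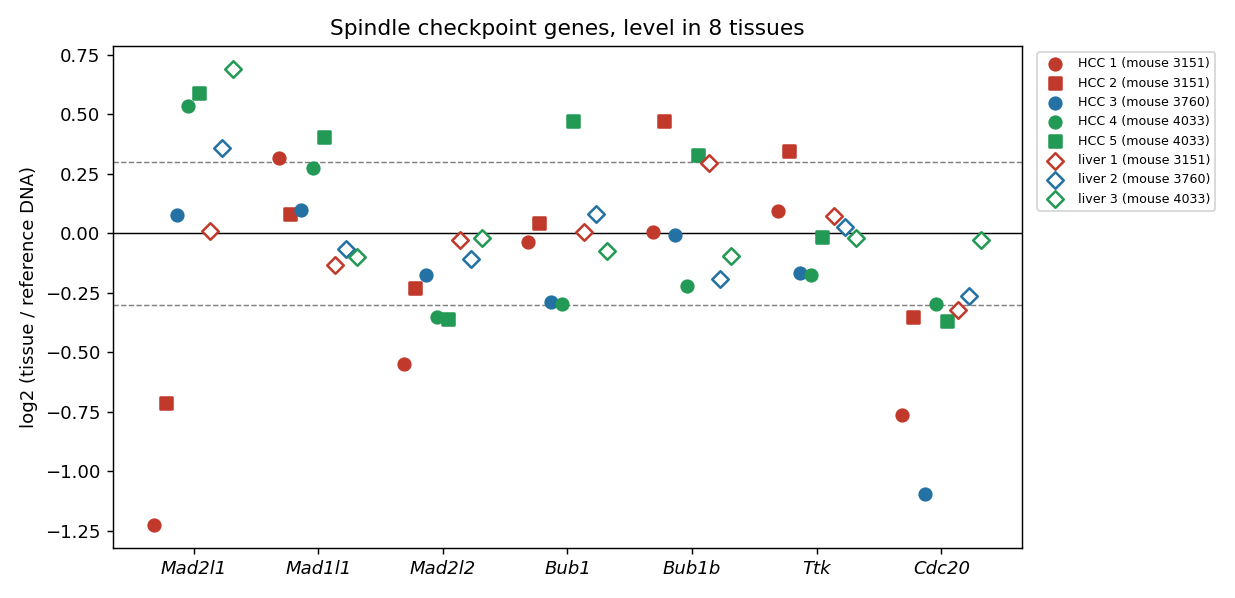
Level (log2 tissue over reference DNA, y axis) of the 7 genes in the 8 tissues, with HCC filled, unaffected livers open, and 1 colour per mouse; the dashed lines mark 0.3 and -0.3. Mad2l1 spans -1.22 in HCC 1 to 0.69 in liver 3, and the HCC of Mad1l1 all lie above its livers.

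HCC and unaffected liver were compared to ask whether the tumours differed from liver that carried the same floxed alleles. The mean Mad2l1 level was -0.15 ± 0.80 in HCC (SD, n = 5) and 0.35 ± 0.34 in unaffected liver (SD, n = 3). The groups overlapped, and the difference of -0.50 (limma SE 0.33, 95% interval -1.21 to 0.21) did not pass the test, with an adjusted p of 0.71 over all gene names and an exact two-sided permutation p of 0.43. Without HCC 1 the difference was -0.23. The 8 tissues were scanned on 2 days, and the difference was -0.19 within the first (HCC 3 and HCC 5 against livers 2 and 3) and -0.48 within the second (HCC 1, HCC 2 and HCC 4 against liver 1).

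Set against the liver of its own mouse, Mad2l1 was lower in 5 of 5 HCC. The difference was -1.24 in HCC 1 and -0.73 in HCC 2, or 0.424 and 0.605 of the signal of liver 1. It was -0.28, -0.16 and -0.10 in HCC 3, HCC 4 and HCC 5, or 0.822, 0.897 and 0.932 of the signal of their livers. The difference in HCC 5 was smaller than the 0.14 typical between dye orientations, and it turned to 0.22 with centring on the mode and to 0.02 on the forward arrays alone. HCC 1 and HCC 2 share a liver, as do HCC 4 and HCC 5. HCC 1 and HCC 2 were on a slide of their own, and liver 1 was on another slide with HCC 4. HCC 3 and HCC 5 shared a slide with their livers. In HCC 1, HCC 2 and HCC 4 the difference from the own liver could not be told apart from the slide. In HCC 4 it could not be told apart from the scan day either. With mouse as a block, limma gave -0.48 (SE 0.17), with an unadjusted p of 0.00664 and an adjusted p of 0.29. With this block the SE was 0.16 to 0.17 for every checkpoint gene. It therefore measures mostly a spread that limma shares over all genes, and not the spread of Mad2l1 itself.

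**Figure D2:**
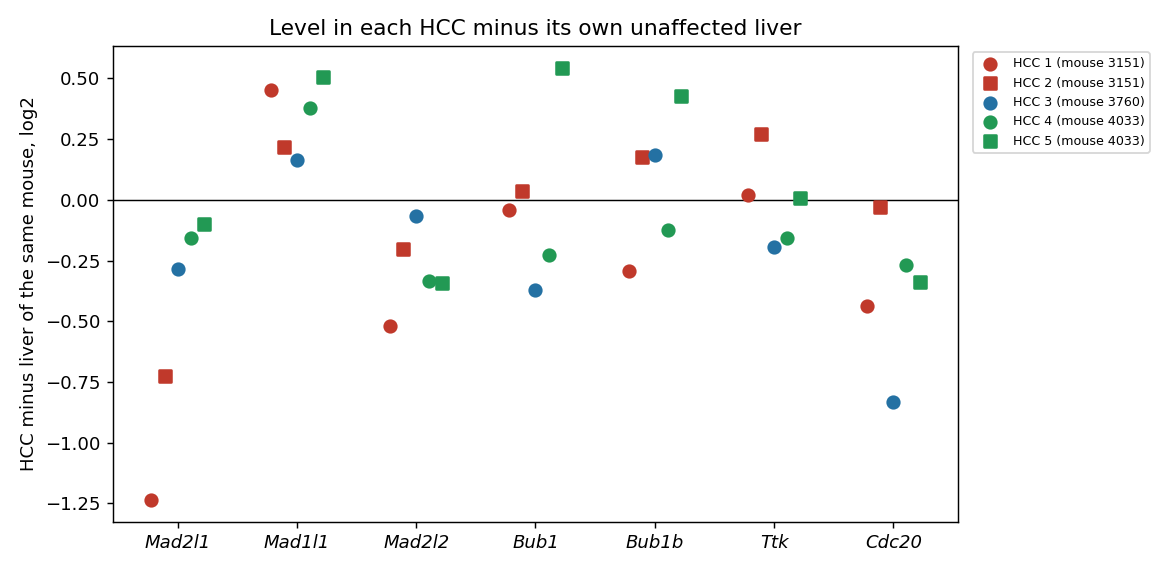
Level in each HCC minus the level in the unaffected liver of the same mouse (log2, y axis) for the 7 genes; points are single HCC, coloured by mouse. Mad2l1, Mad2l2 and Cdc20 lie below 0 in 5 of 5 HCC and Mad1l1 above 0 in 5 of 5.

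The low Mad2l1 values of the p53(f/+) mouse were not those of its chromosome. The median of Chr6 was 0.30 in HCC 1 and 0.33 in HCC 2, so that relative to its chromosome Mad2l1 stood at -1.53 and -1.04. In HCC 4 the Chr6 median was 0.34 and Mad2l1 was 0.20 above it. In HCC 5 the median was -0.32 and Mad2l1 was 0.91 above it. HCC 3 and the 3 livers had Chr6 medians between -0.04 and 0.02, with Mad2l1 0.12 above the median in HCC 3, 0.04 in liver 1, 0.34 in liver 2 and 0.67 in liver 3. Relative to the chromosome, HCC minus unaffected liver was -0.62, with an exact permutation p of 0.46, and 4 of 5 HCC were below their own liver. Within the first scan day this difference was 0.01 and within the second -0.83.

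The Mad2l1 probe lay outside the range of its 4 flanking probes in HCC 1, HCC 2, HCC 5 and livers 1, 2 and 3, but not in HCC 3 or HCC 4. Before it lay 2 probes named by position alone, 484 and 26.9 kb away. After it lay the probe of V1rc15, a vomeronasal receptor gene, 12.2 kb away, and a further probe named by position alone, 144 kb away. In HCC 1 these read 0.34, 0.46, -0.43 (V1rc15) and -0.32 in map order, around the -1.22 of Mad2l1. In HCC 2 they read 0.50, 0.09, -0.44 (V1rc15) and 0.13, around -0.71. V1rc15 was -0.62 in liver 1 of the same mouse, where Mad2l1 was 0.01. In HCC 4 the flanking probes read 0.61, -0.26, 0.59 (V1rc15) and 0.35, around 0.53, and in HCC 5 they lay between -0.38 and -0.20, around 0.59. In liver 3, where Mad2l1 was 0.69, the 4 flanking probes lay between -0.19 and 0.18. They lay between -0.21 and 0.16 in liver 2, where Mad2l1 was 0.36, and between -0.62 and -0.09 in liver 1. In HCC 3 they lay between -0.45 and 0.31, around 0.08.

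**Figure D3:**
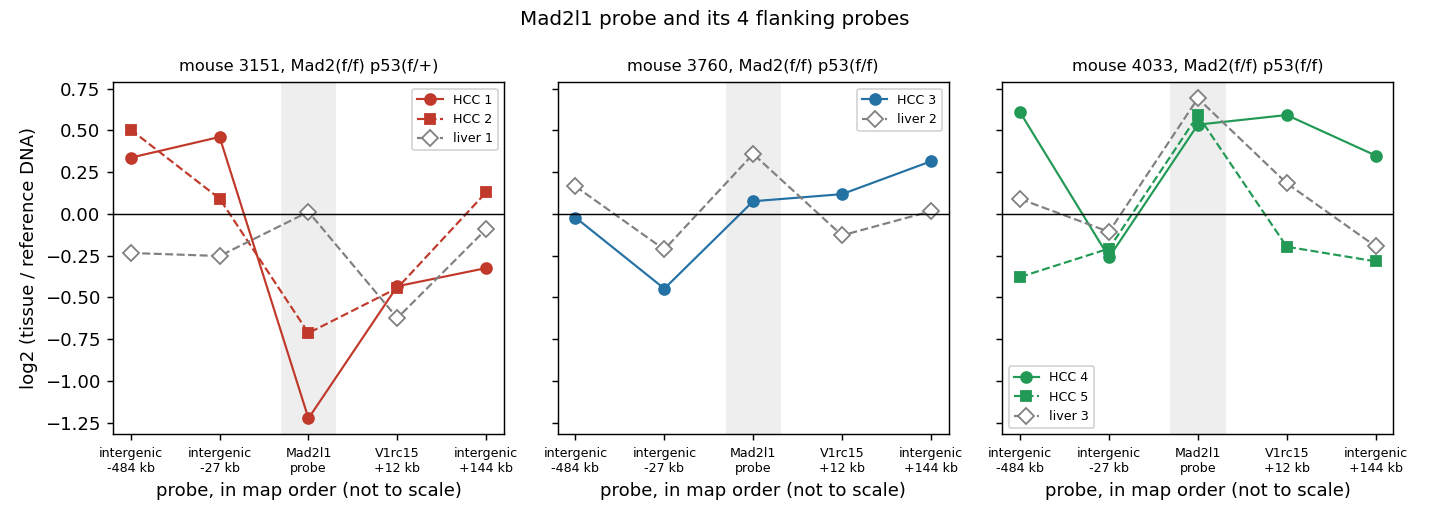
Level (log2 tissue over reference DNA, y axis) of the Mad2l1 probe (shaded) and its 4 flanking probes in map order, 1 panel per mouse, HCC in colour and unaffected liver in grey with open diamonds. Mad2l1 is the low point of HCC 1 and HCC 2 at -1.22 and -0.71 and the high point of livers 1, 2 and 3 at 0.01, 0.36 and 0.69.

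The local deviation, the probe minus the mean of its 4 flanking probes, takes out gains and losses of the neighbourhood. For Mad2l1 it was -1.23, -0.78, 0.08, 0.21 and 0.86 in HCC 1 to HCC 5, and 0.31, 0.40 and 0.70 in livers 1, 2 and 3. In HCC 1 and HCC 2 only 13 and 65 gene names had a lower local deviation. In HCC 5 and liver 3 99.8% and 99.7% were lower, and in livers 1 and 2 94.6% and 99.4%. HCC minus unaffected liver was -0.64 (limma SE 0.38, 95% interval -1.49 to 0.20, adjusted p 0.9999, exact permutation p 0.25), and without HCC 1 it was -0.38. Against the reference, the limma mean was -0.17 in HCC (SE 0.25, adjusted p 0.95) and 0.47 in unaffected liver (SE 0.30, adjusted p 0.996). The HCC were fitted alone, but the liver SE came from a spread shared with the HCC. The SD was 0.83 in the HCC and 0.20 in the livers themselves. These means moved with the dyes: forward arrays alone gave 0.17 in HCC and 0.80 in liver, and dye-swap arrays alone gave -0.67 and 0.14.

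The 5 gene names whose local deviation over the 8 tissues was most like that of Mad2l1, by Pearson correlation, were Tnfrsf1b on Chr4, Pmaip1 on Chr18, BC017158 and Prss8 on Chr7, and Slc13a3 on Chr2, with r between 0.92 and 0.94. They were the highest of 4162 names with an SD of at least 0.2, and the 8 tissues share mice, slides and reference DNA. Slc13a3, a carrier of dicarboxylates, had a local deviation of -0.80 in HCC 1 and -0.73 in HCC 2 and of 0.42 in HCC 5 and 0.38 in liver 3. The other checkpoint genes had r between -0.40 for Bub1b and 0.53 for Mad2l2.

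No other checkpoint gene passed the test either. Over all gene names, limma called 0 of 19948 (0% of those tested) in HCC against unaffected liver, and 1620 names (8.12%) had an unadjusted p under 0.05. Of the 7 checkpoint genes, 2 did, Mad1l1 and Mad2l2, and 0 had an adjusted p under 0.05. With mouse as a block, 3 of 7 had an unadjusted p under 0.05, beside 6.87% of all names: Mad2l1 (0.00664), Cdc20 (0.0133) and Mad1l1 (0.0468), while Mad2l2 had 0.0966. By adjusted p 0 were called with the block as well. The SE with the block was 0.16 to 0.17 for all 7, so these p-values rest mostly on the spread shared over all genes. The median difference of the 7 genes was -0.03, beside -0.01 over all gene names. On simulated shifts of -1 (log2) the same test recovered 85% of the shifted genes. There 200 genes were shifted at once, and values were drawn independently for each gene and tissue, without shared mice or chromosomes. The share is over genes of all spreads and is not that of Mad2l1, whose SE was 0.33, beside 0.13 to 0.18 for the other members.

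Mad1l1, the kinetochore anchor of Mad2l1, had a higher level in every HCC than in any liver. Its level was 0.32, 0.08, 0.10, 0.28 and 0.41 in HCC 1 to HCC 5, and -0.13, -0.06 and -0.10 in livers 1, 2 and 3. All HCC were above all livers, also with centring on the mode, and the difference was 0.34 (SE 0.13, exact permutation p 0.0357, the smallest that 5 against 3 tissues can give, limma adjusted p 0.47). Its 2 probes differed by a median of 0.05 over the 8 tissues. Its flanking probes, of which Elfn1 and Ftsj2 carry names, averaged 0.26, 0.31, 0.12, 0.25 and 0.38 in HCC 1 to HCC 5, and -0.14, -0.03 and 0.001 in livers 1, 2 and 3. The Chr5 median was 0.15, -0.17, 0.19, 0.16 and 0.38 in HCC 1 to HCC 5, and relative to it the difference was 0.19 (exact permutation p 0.0714), while its local deviation stayed between -0.23 and 0.06 in all tissues and differed by 0.02 between the groups (SE 0.09).

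Across the checkpoint genes, 2 of 7 had HCC and livers that did not overlap, Mad1l1 and Mad2l2, beside 9.78% of 19946 gene names with a value in every tissue. Of all names, 6.06% had all HCC above all livers and 3.72% all below. Relative to the chromosome median 0 of 7 did, beside 2.02% of all names, and by local deviation 0 of 7, beside 1.75%.

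Mad2l2, the relative of Mad2l1 in translesion synthesis, had a lower level in every HCC than in any liver. Chr4 had a negative median in every HCC and in every liver. Its level was -0.55, -0.23, -0.17, -0.35 and -0.36 in HCC 1 to HCC 5, and -0.03, -0.11 and -0.02 in livers 1, 2 and 3. All HCC were below all livers with the median as baseline, but with centring on the mode HCC 5 rose to -0.04 and the groups overlapped. The difference was -0.28 (SE 0.13, exact permutation p 0.0357, limma adjusted p 0.60). The Chr4 median was between -0.44 and -0.15 in the HCC, and -0.17, -0.09 and -0.03 in livers 1, 2 and 3. Relative to the Chr4 median Mad2l2 differed by -0.10 (exact permutation p 0.21). Its flanking probes were of 2610109H07Rik before it and of the F-box genes Fbxo6 and Fbxo44 after it. They averaged -0.37, -0.19, -0.08, -0.65 and -0.41 in HCC 1 to HCC 5, and -0.14, -0.12 and -0.03 in livers 1, 2 and 3. By local deviation Mad2l2 differed by -0.04 between the groups (SE 0.11).

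Cdc20, the target that Mad2l1 holds, was low in most tissues. Its level was -0.76, -0.35, -1.09, -0.30 and -0.37 in HCC 1 to HCC 5, and -0.32, -0.26 and -0.03 in livers 1, 2 and 3. HCC 1 and HCC 3 were well below the rest, HCC 2 and HCC 5 lay just below liver 1, the lowest liver, and HCC 4 lay between livers 1 and 2. The difference was -0.37 (SE 0.18, exact permutation p 0.0714, limma adjusted p 0.63). Cdc20 lies on Chr4 like Mad2l2, and relative to the Chr4 median it stood at -0.47 in HCC 1 and -0.94 in HCC 3, and between -0.17 and 0.14 in the other 6 tissues. In HCC 3 only 29 gene names were lower.

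The lowest value of Cdc20 rests on a single array, and its orientations disagreed elsewhere. In HCC 4 the forward array gave -0.87 and the dye-swap array 0.28, and in liver 1 they gave -0.79 and 0.14. These gaps exceeded 95% of those in the same tissues over all gene names, where that percentile was 0.68 in HCC 4 and 0.84 in liver 1. In liver 3 the orientations of Cdc20 gave -0.17 and 0.11. In HCC 1, HCC 2, HCC 5 and liver 2 they were within 0.10 of each other. HCC 3 had a forward array alone, the orientation that read lower in HCC 4, liver 1 and liver 3, where the signs differed.

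**Figure D4:**
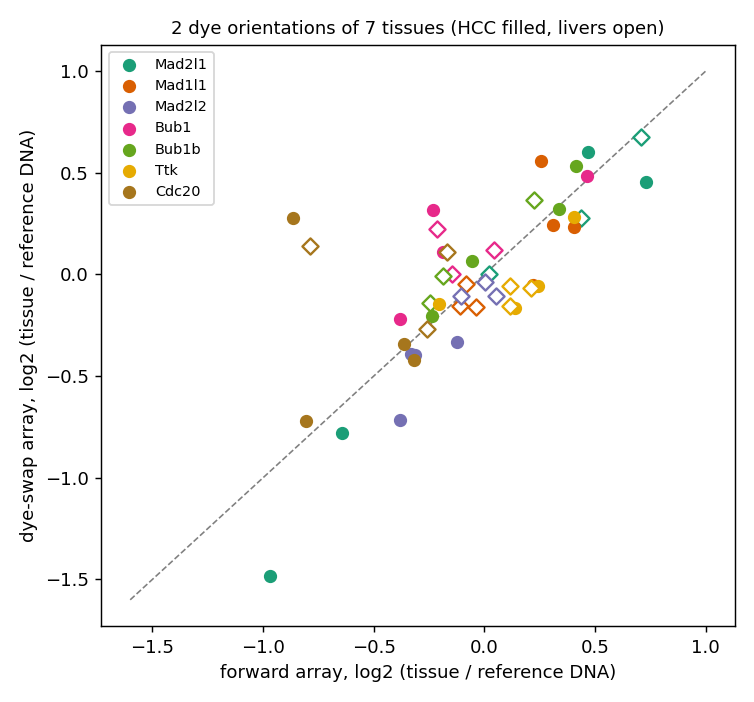
Level on the dye-swap array (y axis) against the forward array (x axis), both log2 tissue over reference DNA, for the 7 genes in the 7 tissues that had both; HCC filled, unaffected livers open, and the dashed line marks equality. The points farthest from the line are Cdc20 in HCC 4 (-0.87 and 0.28) and in liver 1 (-0.79 and 0.14).

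The kinases and Bub1b showed no common shift. Ttk, the kinase at the top of the pathway, had levels of 0.09, 0.34, -0.17, -0.18 and -0.01 in HCC 1 to HCC 5 and of 0.07, 0.03 and -0.02 in livers 1, 2 and 3. Bub1, which recruits the other checkpoint proteins, had levels of -0.04, 0.04, -0.29, -0.30 and 0.47 in the HCC and of 0.01, 0.08 and -0.07 in the livers. Its level of 0.47 in HCC 5 stood beside a Chr2 median of 0.36. The 2 Bub1 probes disagreed most in HCC 3, at 0.03 and -0.61. The dye orientations of Bub1 had opposite signs in HCC 1, HCC 2, liver 1 and liver 3, with the widest gap, 0.55, in HCC 2. Those of Ttk had opposite signs in HCC 1, HCC 5 and livers 1, 2 and 3. Their median absolute difference was 0.27 for Ttk, beside 0.17 over all gene names and tissues. Bub1b, part of the complex that holds Cdc20, had levels of 0.01, 0.47, -0.01, -0.22 and 0.33 in the HCC and of 0.30, -0.19 and -0.10 in the livers. For all 3 genes HCC and livers overlapped, and the differences were -0.01 for Ttk (SE 0.14), -0.03 for Bub1 (SE 0.17) and 0.11 for Bub1b (SE 0.17). The 95% intervals reached from -0.32 to 0.29 for Ttk, from -0.39 to 0.33 for Bub1 and from -0.25 to 0.48 for Bub1b. Exact permutation p-values were 0.96, 0.89 and 0.50, and the adjusted p-values from limma were 0.98, 0.96 and 0.85. The signs for Ttk and Bub1 turned with centring on the mode, where the differences were 0.05 and 0.04.

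Bub1b was high in 2 tissues of the p53(f/+) mouse where its chromosome was not. Relative to the Chr2 median it stood at 0.36 in HCC 2 and 0.29 in liver 1 but at 0.01 in HCC 1. Both Bub1b probes were high in HCC 2, at 0.34 and 0.61, and in liver 1, at 0.26 and 0.33. The other tissues lay between -0.22 and 0.01 relative to the chromosome.

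For Ttk, the local deviation changed with how the neighbours were averaged. Ttk was above the mean of its 4 neighbours in all 8 tissues, by 0.17, 0.31, 0.41, 0.22 and 0.34 in HCC 1 to HCC 5 and by 0.07, 0.39 and 0.34 in livers 1, 2 and 3. Against the reference, limma gave 0.29 in HCC (SE 0.06, unadjusted p 0.000901, adjusted p 0.25) and 0.27 in livers (SE 0.08, unadjusted p 0.00568, adjusted p 0.996). The liver SE again came from a spread shared with the HCC, and the SD was 0.10 in the HCC and 0.17 in the livers. Of the 4 neighbours, a probe of Elovl4, a fatty acid elongase gene, read -1.62, -1.44 and -1.33 in HCC 3, HCC 4 and HCC 5 and -1.38 and -1.46 in livers 2 and 3, the tissues of the p53(f/f) mice, and between -0.18 and -0.04 in the p53(f/+) mouse. The other Elovl4 probe read between -0.50 and 0.15, and those of AK085082 and AK089921 between -0.38 and 0.21. With the median of the 4 neighbours in place of their mean, the local deviation of Ttk was 0.15 ± 0.16 in HCC (SD, n = 5) and 0.05 ± 0.04 in livers (SD, n = 3). It was then 0.16, 0.33, 0.28, -0.07 and 0.07 in HCC 1 to HCC 5, so that HCC 1 and HCC 2 of the p53(f/+) mouse hardly moved and HCC 4 fell below its neighbours.

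Bub1b also had neighbours that were low in some tissues, here in tissues of both genotypes. Its local deviation was 0.24 ± 0.13 in HCC (SD, n = 5) and 0.20 ± 0.29 in livers (SD, n = 3), and limma gave an adjusted p of 0.48 in HCC against the reference. A probe of Bmf, a pro-apoptotic gene, read -1.16 in liver 1, -0.87 in HCC 4 and -0.67 in HCC 1, and a probe of Pak6 read -1.18 in HCC 3 and -0.90 in liver 2, whereas that of Plcb2, a phospholipase gene, lay between -0.19 and 0.33. With the median of the neighbours the values were 0.17 ± 0.14 and 0.03 ± 0.18. Over all gene names limma called 0 of 19948 local deviations in HCC against liver (0%), 4 in HCC against the reference (0.0201%) and 2 in liver against the reference (0.01%). Of the 7 checkpoint genes 0 were called in any of the 3. At an unadjusted p under 0.05, 1.48% of all names and 0 of 7 checkpoint genes differed between the groups (with mouse as a block 2.07% and 1 of 7, Mad2l1, with an unadjusted p of 0.016 and an adjusted p of 0.9998), 6.39% and 2 of 7 (Ttk and Bub1b) from the reference in HCC, and 4.15% and 1 of 7 (Ttk) in liver.

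**Figure D5:**
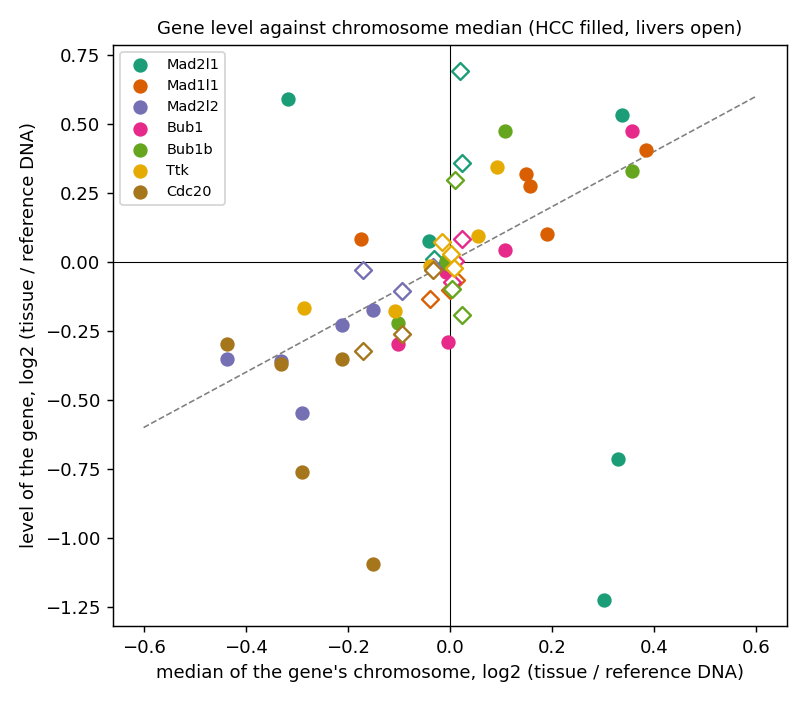
Level of each gene (y axis) against the median of its chromosome in the same tissue (x axis), both log2 tissue over reference DNA; HCC filled, unaffected livers open, 1 colour per gene, and the dashed line marks equality. Mad2l1 in HCC 1 and HCC 2 lies at -1.22 and -0.71 where the median is 0.30 and 0.33, and Cdc20 in HCC 3 at -1.09 where it is -0.15.

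Counted past the threshold of 0.3, 8 of the 35 gene by tissue values in HCC were gains (22.9%) and 9 were losses (25.7%), beside 18.1% and 18.7% of such values over all gene names. The gains were Mad2l1 in HCC 4 and HCC 5, Mad1l1 in HCC 1 and HCC 5, Bub1 in HCC 5, Bub1b in HCC 2 and HCC 5, and Ttk in HCC 2. The losses were Mad2l1 in HCC 1 and HCC 2, Mad2l2 in HCC 1, HCC 4 and HCC 5, and Cdc20 in HCC 1, HCC 2, HCC 3 and HCC 5. In unaffected liver 2 of 21 values were gains (9.52%), both of Mad2l1, and 1 of 21 a loss (4.76%), of Cdc20 in liver 1, beside 1.48% and 2.75% over all gene names.

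Against their own livers, 3 of 7 genes were lower in 5 of 5 HCC (Mad2l1, Mad2l2 and Cdc20), beside 7.2% of all names, and 1 of 7 was higher in 5 of 5 (Mad1l1), beside 8.72%. Mad2l2 and Cdc20 share Chr4, so they are not separate cases. The Cdc20 difference was only -0.03 in HCC 2, against liver 1, whose orientations gave -0.79 and 0.14. With centring on the mode Mad2l1 and Cdc20 were lower in 4 of 5 HCC, whereas Mad2l2 and Mad1l1 kept 5 of 5. Relative to the chromosome median 0 of 7 were lower in 5 of 5 HCC (4.12% of all names) and 0 of 7 higher (3.3%). By local deviation 0 of 7 were lower (3.85%) and 0 of 7 higher (3.67%).

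The wider pathway was read from 4 lists of 43 genes, of which 35 had a probe. The limma test called 0 of the 35 in HCC against unaffected liver, 17 were above 0 and 18 below, and 3 had an unadjusted p under 0.05 (8.57%), beside 8.12% of all names. The lowest adjusted p was 0.19, for Espl1. The median difference was -0.003, beside -0.01 over all gene names.

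Of the kinetochore partners, 14 of 17 had a probe, and 8 were above and 6 below 0. They ran from Cenpe, a kinesin that links kinetochores to microtubules, at -0.25 (SE 0.14, adjusted p 0.67) to Spc25, a subunit of the Ndc80 complex, at 0.08 (SE 0.15, adjusted p 0.88). The median of Chr3, where Cenpe lies, differed by -0.25, and that of Chr2, where Spc25 lies, by 0.06. Of the Aurora B complex, 3 of 4 had a probe and all 3 were below 0, from Cdca8 (borealin) on Chr4 at -0.27 (SE 0.12, adjusted p 0.60) to Birc5 (survivin) at -0.13 (SE 0.15, adjusted p 0.80). The Chr4 median differed by -0.19 and the Chr11 median of Birc5 by -0.13. By local deviation all 3 were below 0 as well. Checkpoint silencing genes had 3 of 4 with a probe. Among these, Mad2l1bp (p31comet), which removes Mad2l1 from the checkpoint complex, was lowest at -0.12 (SE 0.15, adjusted p 0.81) and Usp44, a deubiquitinase, highest at 0.13 (SE 0.18, adjusted p 0.84). The Chr17 median of Mad2l1bp differed by -0.16, and by local deviation Mad2l1bp turned to 0.18 (SE 0.08, unadjusted p 0.0442, adjusted p 0.9999), the highest of its list.

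The anaphase-promoting complex and its targets had 15 of 18 with a probe, 8 above and 7 below 0. Espl1 (separase), the protease that cleaves cohesin, was the highest, at 0.51 (SE 0.13, adjusted p 0.19), with levels of 0.39 to 0.66 in the HCC and -0.04 to 0.09 in the livers. It lies on Chr15, whose median differed by 0.47 between HCC and livers. Anapc13, a subunit of the complex, was the lowest, at -0.23 (SE 0.13, adjusted p 0.67). By local deviation 0 of the 35 genes were called in any of the 3 comparisons.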

How the data were processed

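Genomic DNA of 8 tissues was hybridised with reference DNA on 15 two-colour Agilent mouse arrays with 43020 non-control spots each. Per the labels and the file headers, the authors labelled tissue and reference with Cy5 and Cy3, exchanged the dyes on a second array, and extracted signals with Agilent Feature Extraction. The deposited intensity values used here are the processed signals, already background-subtracted and dye-normalized, and, for an alternative, the mean and background intensities. The deposited series table holds log10 ratios of the same arrays, centred near 0, which equalled the scanner's log ratio after the sign was turned on dye swaps (largest difference 4.99e-06). The genome build is not given in the sources used here.

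From these, log2 ratios of tissue over reference were computed, turned to 1 direction, averaged over spots of a probe without outlier-marked spots, centred on the autosomal median of the array and averaged over dye orientations, so that each tissue is 1 sample. Probes of a gene name were averaged. Median signal over background was 3.72 to 7.95, and between 0.191% and 2.31% of the spots did not stand well above it. The number of tissues limits the precision.

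Groups were taken from the labels. HCC (n = 5) and unaffected liver (n = 3) were compared with limma 3.58.1 over 19948 gene names (Benjamini-Hochberg, threshold 0.05) and, for single genes, with exact two-sided permutation tests over 56 splits, whose smallest p is 0.0357. On simulated data, drawn independently for each gene and tissue, limma recovered 85% of 200 levels and 92.5% of 200 local deviations shifted by -1. Tissues of the same mouse are paired by the animal, and their deviations from the group means correlated at 0.05 to 0.23 for levels, against -0.17 to 0.09 between mice. The mouse was therefore tried as a block. Tissues of 1 mouse are not independent, so p-values measure the spread between these tissues, and limma draws the spread of each gene toward that of all genes. Against the reference, the HCC were fitted alone and the livers with a spread shared with the HCC. Probe sequences are those of the array files.

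The genes, the wider lists and the tests were chosen with earlier results of these data known. Named were the members, the genes of their flanking probes, the highest and lowest gene of each wider list and the 5 names most like Mad2l1. The flanking probes of Bub1 and Cdc20 are not reported here. The alternatives were other centring, background correction, dye orientation, spot filters, blocks, flanking probes and leaving out each tissue. The dye-swap arrays alone, the deposited table and the median of the flanking probes were chosen after seeing the data, as were the alternatives tried on the local deviations of members other than Mad2l1, on levels relative to the chromosome and on differences from the own liver.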

Additional observations from a re-analysis of the deposited data

Results flagged for a closer look

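Of 21 comparisons of the 5 HCC over the 7 genes and 3 quantities, 2 had an HCC far from the others (its gap to the nearest HCC relative to the range of all 5), where chance alone gives about 1 in 20. The local deviation of Mad1l1 in HCC 2, at -0.23, had a gap of 0.739 of the range. The level of Bub1b relative to the Chr2 median in HCC 2, at 0.36, had a gap of 0.728 of the range.

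The local deviation of Bub1b relative to the own liver went down in both HCC of the p53(f/+) mouse, by a mean of -0.22, and up in the 3 HCC of the p53(f/f) mice, so that the means differed by -0.37. With the median of the flanking probes HCC 1 was at -0.11 and HCC 2 at 0.17 relative to liver 1, so that the directions no longer separated the genotypes. This difference was not tested, and liver 1, whose Bmf flanking probe read -1.16, is the liver of both p53(f/+) HCC.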

How the results depend on the processing

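The number of genes called in HCC against unaffected liver was 0 under all 18 alternatives, and so was the number of checkpoint genes called by level; by local deviation it was 0 under 21. The Mad2l1 level difference kept its sign and missed the threshold under 18 alternatives (-0.69 to -0.23), and so did its local deviation against liver under 21 (-0.90 to -0.38). In unaffected liver against the reference, the Mad2l1 local deviation was 0.14 to 0.80. In HCC against the reference it reversed on forward arrays alone (0.17), and ranged from -0.430 to 0.0927 when each HCC was left out, reversing without HCC 1. Bub1 reversed to 0.00538 with scan day as a block, 0.0362 with centring on the mode, 0.0185 with normexp and 0.0567 on dye-swap arrays alone, and ranged from -0.151 to 0.0419 when each tissue was left out. Ttk reversed to 0.0529 with centring on the mode and 0.0721 on dye-swap arrays alone, and ranged from -0.0924 to 0.0376 when each tissue was left out. The cause was not tested. Of the 126 level differences over the 7 genes, 114 kept their direction and missed the threshold, and the lowest adjusted p was 0.19. The mouse as a replicate block changed no call (Mad2l1 level -0.48, adjusted p 0.29). Values past the threshold numbered 20 of all members and tissues at 0.3, 20 with centring on the mode and 8 at a threshold of 0.5. The 20 with centring on the mode were not the same 20. Mad1l1 in HCC 1, Mad2l2 in HCC 5 and Cdc20 in HCC 2 and HCC 5 were no longer past 0.3. Ttk in HCC 5, Bub1 and Cdc20 in HCC 4 and Bub1b in liver 1 were past it instead. Centring on the mode raised HCC 5 by 0.32. Relative to the chromosome median, 0 genes had a permutation p under 0.05 under 7 alternatives, and leaving out a tissue or using dye-swap arrays alone leaves too few tissues to reach it. Each gene had 1 or 2 probes and the arrays were 3.72 to 7.95 times background, and detection was tested on simulated shifts of -1 alone.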
